A study of Mus musculus with 6 samples.

Results

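Elastic fibres are built from a core of elastin laid onto a scaffold of fibrillin microfibrils, and this section describes the 10 genes Eln, Fbn1, Fbn2, Fbln1, Fbln2, Fbln5, Efemp1, Efemp2, Mfap4 and Mfap5. They were taken by name as elastin, the fibrillins, the fibulins and the microfibril-associated proteins, out of 42256 genes in the deposited table. RNA came from PDGFRa+ cells, which are fibroblast-like, sorted from collagenase-digested scar tissue of mouse hearts taken 7 days after injury, on a mixed 129S2/C57Bl6 background. In 4 libraries the mice were Htr2bfl/flPostnMCM/+ (called Htr2b_cKO here): the serotonin receptor gene Htr2b was floxed, and 1 allele of Postn carried a Cre that tamoxifen activates. In the 2 control libraries the mice were Htr2bfl/fl, with the floxed receptor gene and no Cre. Tamoxifen was given in the chow to controls as well as Htr2b_cKO mice, starting 1 week ahead and lasting to the end. The Cre acts only in cells that express Postn, and no control carried it, so an effect of the Cre or of the altered Postn allele and an effect of losing Htr2b cannot be told apart. The labels used here give no ages. The comparison asks how removing this receptor from activated fibroblasts alters scar fibroblasts, and here whether it alters their elastic fibre genes.

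Tropoelastin, the product of Eln, is secreted by fibroblasts and smooth muscle cells and is crosslinked by lysyl oxidases into an elastic polymer. Fibrillins form long beaded microfibrils that guide elastin deposition and also hold latent TGF-β and BMPs in the matrix. Fibulins bridge elastin, fibrillin and the crosslinking enzymes, and MFAP proteins decorate the microfibrils. In a healing infarct the scar must resist stretch, and its matrix is dominated by collagen with a smaller elastic component.

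Library totals ran from 28533427 to 37392496 estimated counts, and each of the 10 genes had at least 959 counts in each library. Levels are given as CPM, counts relative to the library total after TMM scaling, which assumes that most genes do not differ. The library labelled Htr2b_cKO 3 had 29 estimated counts of Htr2b against 13 and 7 in the controls. The other Htr2b_cKO libraries had 0, 3 and 4. Htr2b counts were thus not lower in that library than in the controls, but they were low in every library, at most 0.876 CPM. They are for the whole gene, so deletion of its floxed part was not tested. The library labelled Htr2b_cKO 4 was the only male, with a summed 139 CPM of Y-linked genes against at most 0.483 CPM elsewhere. Estimates that move by more than 1.5 times when either library is left out are given both ways or as a range. For the lists of related genes given below, counts above 0 and medians are for all 6 libraries only. Pdgfra, the sorting marker, ran from 668 CPM in the library labelled Htr2b_cKO 3 to 1237 CPM in control 2.

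None of the 10 genes differed between Htr2b_cKO and control beyond the spread between libraries. With the edgeR quasi-likelihood test 0 of 10 passed at an adjusted p under 0.05, where 0.0189% of the 15840 genes tested passed, and 0 of 10 had an unadjusted p under 0.05, where 9.59% of all genes did. DESeq2 called 0 of the 10 (0.647% of its genes) and limma voom 0. The 2 groups overlapped for each of the 10 genes, while 19.6% of all genes had groups that did not overlap. Of the 10 fold changes 8 were above 0, where 7918 of the 15840 genes tested were. Their median was 0.09 (log2) beside 0.00 over all genes tested, and the median was -0.05 without the library labelled Htr2b_cKO 3. What did vary was the level of single genes between libraries of the same genotype, above all of Eln.

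**Figure D1:**
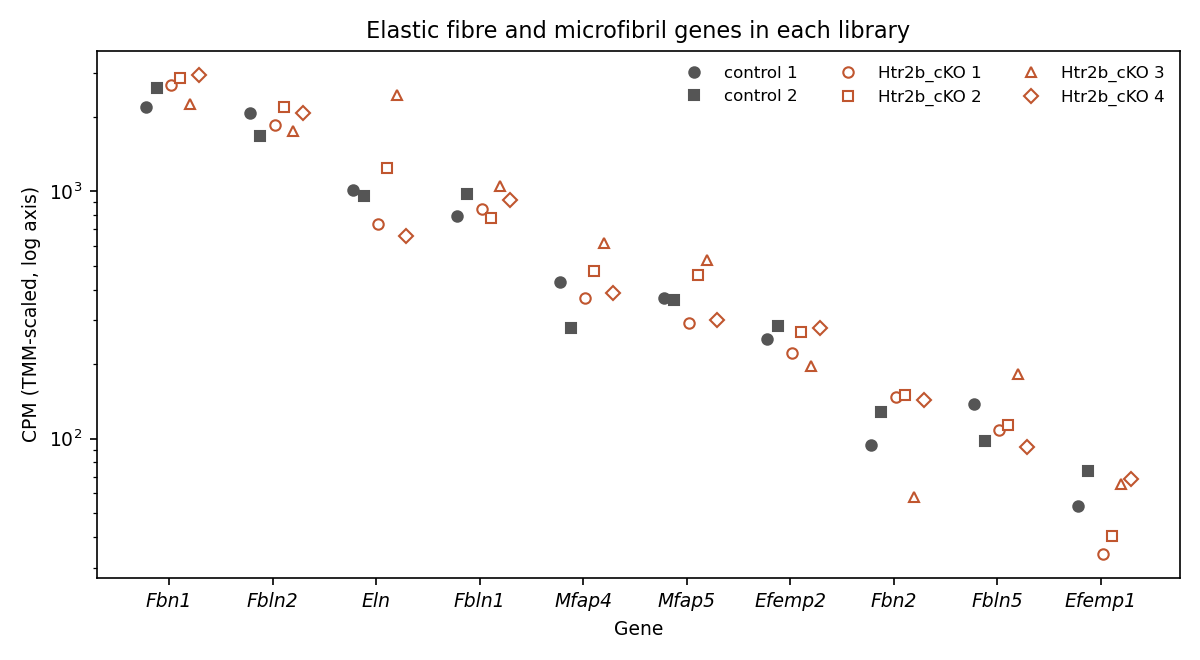
Level of each gene (CPM, log axis) in each library, with filled grey symbols for the 2 control libraries and open orange symbols for the 4 Htr2b_cKO libraries. The symbols of the 2 groups intermix for every gene, and the triangle of the library labelled Htr2b_cKO 3 stands high for Eln (2447 CPM) and low for Fbn2 (58.1 CPM).

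Eln, on chromosome 5 from 134702593 to 134747323 on the minus strand of mm10 (ENSMUSG00000029675), had 1012 and 952 CPM in the controls and 737, 1240.1, 2447 and 657 CPM in Htr2b_cKO libraries 1 to 4. The controls lay close together, and the Htr2b_cKO libraries lay on either side of them, with 2 below and 2 above. The highest Htr2b_cKO library had 3.73 times the level of the lowest, against 1.06 times between the controls. Group means were 982 ± 41.8 CPM (SD, n = 2) in control and 1270.1 ± 826 CPM (SD, n = 4) in Htr2b_cKO. This is a log2 fold change of 0.37 (edgeR, SE 0.55, adjusted p = 0.859), whose interval of 2 SEs, -0.72 to 1.47, was the widest of the 10 genes. Without the library labelled Htr2b_cKO 3 the estimate was -0.15. The spread of Eln over the 6 libraries was large for an abundant gene: of the 3537 genes with a mean of 50 CPM or more, 1.95% had a larger SD of log2(CPM + 0.5). The authors' own normalized values for Eln were scaled almost alike, since their factor for this gene departed from the library's median factor by at most 0.024 (log2).

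**Figure D2:**
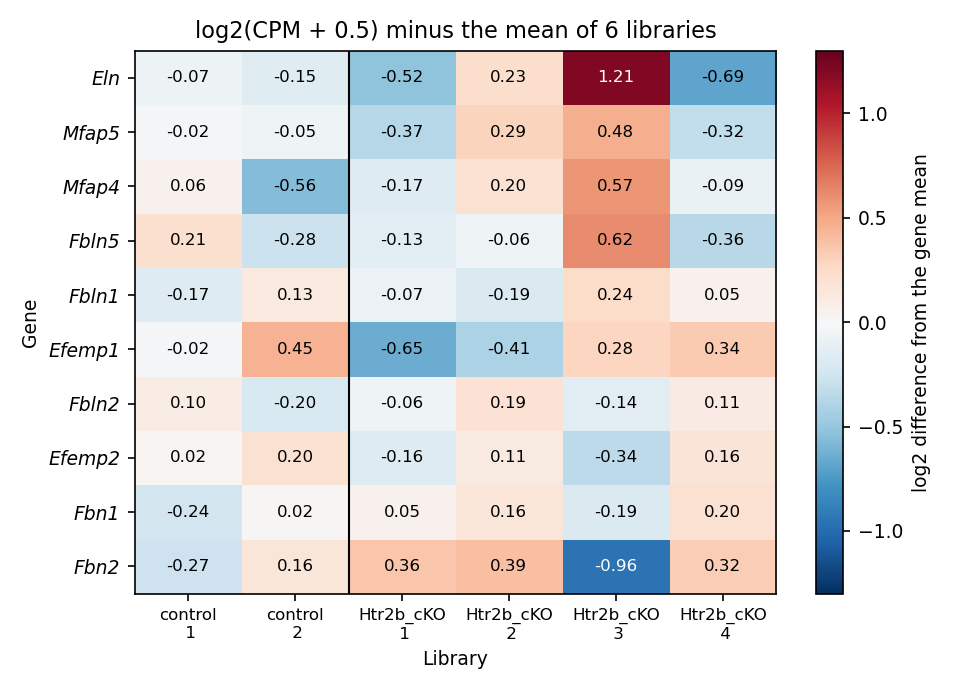
Each cell gives log2(CPM + 0.5) of a gene in a library minus the gene's mean over the 6 libraries, with controls left of the black line, Htr2b_cKO right of it, red above the mean and blue below. The column of the library labelled Htr2b_cKO 3 runs from 1.21 for Eln to -0.96 for Fbn2.

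The fibrillins form the microfibril itself: Fbn1 encodes the main adult fibrillin, and Fbn2 a second fibrillin that is prominent in development. Fbn1 (chromosome 2, 125300594 to 125507993, minus strand) had 2184 and 2609.8 CPM in control and 2673, 2867, 2254 and 2955 CPM in Htr2b_cKO libraries 1 to 4. It was the most abundant of the 10 genes by CPM in 5 libraries, and its values were tightly grouped, with 3 Htr2b_cKO libraries slightly above both controls and 1 between them. Its log2 fold change came to 0.17 (edgeR, SE 0.20, adjusted p = 0.818), with an interval of 2 SEs from -0.23 to 0.56. Leaving out control 1 gave 0.040, leaving out control 2 gave 0.31, and leaving out the library labelled Htr2b_cKO 3 gave 0.25. Fbn2 (chromosome 18, 58008623 to 58210487, minus strand) had 94.2 and 127 CPM in control and 147, 149, 58.1 and 143 CPM in Htr2b_cKO. Htr2b_cKO libraries 1, 2 and 4 lay close together at 143 to 149 CPM, above both controls, while the library labelled Htr2b_cKO 3 was below both. For Fbn2 the log2 fold change was 0.16 (edgeR, SE 0.38, adjusted p = 0.916) and 0.41 without that library, which still did not pass (edgeR, adjusted p = 0.36). Within each library the log2 ratio of Fbn2 to Fbn1 counts, which library scaling cannot move, was -4.53 and -4.36 in control and -4.19, -4.26, -5.28 and -4.37 in Htr2b_cKO. The library labelled Htr2b_cKO 3 thus had the lowest share of Fbn2, and the other 5 lay close together. The mean ratio differed by -0.08 between groups (exact permutation test, two-sided, p = 0.933), where the smallest p that 15 splits allow is 0.0667.

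Fbln1 and Fbln2 encode the larger fibulins, which bind fibronectin, laminins and proteoglycans as well as elastin. Fbln2 (chromosome 6, 91212455 to 91272540, plus strand) had 2063 and 1675 CPM in control and 1849.9, 2192, 1749 and 2071 CPM in Htr2b_cKO libraries 1 to 4. Its libraries differed by no more than 1.31 times, the smallest spread of the 10 genes. For Fbln2 the log2 fold change was 0.07 (edgeR, SE 0.19, adjusted p = 0.926). Fbln1 (chromosome 15, 85205949 to 85286535, plus strand) had 791 and 972 CPM in control and 845, 781, 1050.1 and 921 CPM in Htr2b_cKO. Its groups spanned nearly the same range, and the log2 fold change was 0.03 (edgeR, SE 0.18, adjusted p = 0.972), with an interval of 2 SEs from -0.34 to 0.39. The log2 ratio of Fbln2 to Fbln1 ran from 0.79 to 1.38 in control and from 0.74 to 1.49 in Htr2b_cKO, a mean difference of 0.05 (exact permutation test, two-sided, p = 0.867). Over the 4 ratios compared, which include that of Mfap5 to Mfap2, the Benjamini-Hochberg adjusted exact p was 0.933 in every case.

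The short fibulins Fbln5 (fibulin-5), Efemp2 (fibulin-4) and Efemp1 (fibulin-3) are the elastogenic branch of the family. Fibulin-5 carries tropoelastin to the microfibril and also binds integrins, and fibulin-4 brings lysyl oxidase to tropoelastin. The 3 genes followed different orders over the libraries, and their promoters are shown as a description. Whether these sequences bear on the levels was not tested. Each line gives the 250 bases upstream of a RefSeq start site in GRCm38.p6, the one nearest to the GENCODE gene start where there are several, read 5′ to 3′ on the gene's strand, with motif matches in capitals.
Fbln5, chr12:101819120-101819369, minus strand: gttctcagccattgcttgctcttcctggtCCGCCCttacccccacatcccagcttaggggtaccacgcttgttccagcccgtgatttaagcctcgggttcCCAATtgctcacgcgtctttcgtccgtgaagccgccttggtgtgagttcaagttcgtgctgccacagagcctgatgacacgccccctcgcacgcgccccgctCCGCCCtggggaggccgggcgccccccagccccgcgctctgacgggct
Efemp2, chr19:5473696-5473945, plus strand: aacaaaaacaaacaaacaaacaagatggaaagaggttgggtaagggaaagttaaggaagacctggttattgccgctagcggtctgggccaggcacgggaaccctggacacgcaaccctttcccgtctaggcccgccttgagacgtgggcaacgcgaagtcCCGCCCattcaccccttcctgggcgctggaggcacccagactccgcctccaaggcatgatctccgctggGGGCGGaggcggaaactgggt
Efemp1, chr11:28852955-28853204, plus strand: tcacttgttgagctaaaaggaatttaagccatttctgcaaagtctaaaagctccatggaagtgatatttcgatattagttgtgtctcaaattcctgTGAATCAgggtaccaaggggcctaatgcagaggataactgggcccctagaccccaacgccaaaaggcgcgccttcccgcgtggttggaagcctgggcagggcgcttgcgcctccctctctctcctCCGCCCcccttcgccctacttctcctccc
Motifs searched on either strand were the GC box (GGGCGG), the TATA box (TATAAA), the CCAAT box (CCAAT), the AP-1 site (TGANTCA), a palindromic SMAD element (GTCTAGAC), the TEAD site (GGAATG) and the E-box (CACGTG). GC boxes were found 2 times in the Fbln5 window, 2 times in that of Efemp2 and 1 time in that of Efemp1, and 32.7% of 32851 windows of all genes hold one. The Fbln5 window also has a CCAAT box, found in 33.8% of windows. The Efemp1 window has TGAATCA, a match to the AP-1 letters searched. Their middle base (N) could be any base, and 6.75% of windows hold such a match. The TATA box, SMAD, TEAD and E-box letters, held by 12.4%, 0.167%, 12.6% and 6.02% of windows, do not occur in these 3 windows. Bases G and C make up 65.2% of the Fbln5 window, 59.2% of that of Efemp2 and 53.6% of that of Efemp1, beside a median of 52.4% over all windows. Other start sites differ: 2 further windows of Efemp2 have 5 GC boxes each with 75.6% and 78.8% G and C, and a further window of Fbln5 has none of the motifs and 49.6%. Promoter sequences were matched for 6 of the 10 genes, the other three being Fbn1, Fbln1 and Fbln2. Eln, Fbn2, Mfap4 and Mfap5 had no entry.

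Fbln5 (chromosome 12, 101746565 to 101819055, minus strand) had 137 and 97.5 CPM in control and 108, 114, 182 and 92.3 CPM in Htr2b_cKO libraries 1 to 4. The library labelled Htr2b_cKO 3 was again the highest, and the other 3 lay within or just under the span of the controls. Fbln5 had a log2 fold change of 0.08 (edgeR, SE 0.28, adjusted p = 0.951), -0.16 without that library and -0.14 without control 2. Efemp2 (chromosome 19, 5473954 to 5482517, plus strand) had 253 and 286 CPM in control and 222, 269, 197 and 279 CPM in Htr2b_cKO. Here the library labelled Htr2b_cKO 3 was the lowest of the 6. For Efemp2 the log2 fold change was -0.15 (edgeR, SE 0.18, adjusted p = 0.809), and its interval of 2 SEs, from -0.51 to 0.20, was the narrowest of the 10 genes. The estimate was -0.056 without the library labelled Htr2b_cKO 3, -0.055 without control 2 and -0.24 without control 1. Efemp1 (chromosome 11, 28853204 to 28926743, plus strand) had 53.3 and 74.0 CPM in control and 34.2, 40.4, 65.6 and 68.6 CPM in Htr2b_cKO. The Htr2b_cKO libraries split in pairs, libraries 1 and 2 under both controls and libraries 3 and 4 between them. Efemp1 had a log2 fold change of -0.28 (edgeR, SE 0.31, adjusted p = 0.804), -0.02 without control 2 and -0.77 (edgeR, adjusted p = 0.418) without both libraries 3 and 4. The log2 ratio of Efemp1 to Efemp2 was -2.24 and -1.95 in control and -2.70, -2.74, -1.59 and -2.02 in Htr2b_cKO, a mean difference of -0.16 (exact permutation test, two-sided, p = 0.8). A counter that ignores strand could add reads of the overlapping, opposite-strand gene Mus81 to Efemp2, which was not tested. By the same counter Mus81 had at most 459 counts in a library against at least 6239 for Efemp2.

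Mfap4 and Mfap5 encode proteins of the microfibril surface: MFAP4 binds elastin, fibrillin and collagen, and MFAP5, also called MAGP-2, binds fibrillins and integrins. Mfap4 (chromosome 11, 61485431 to 61488900, plus strand) had 430.4 and 279.8 CPM in control and 369, 475, 615 and 389 CPM in Htr2b_cKO libraries 1 to 4. Control 2 was the lowest of the 6, and control 1 lay in the middle of the Htr2b_cKO libraries. Its log2 fold change of 0.38 (edgeR, SE 0.26, adjusted p = 0.672) was the largest of the 10 genes in size and had the smallest unadjusted p (0.178), with an interval of 2 SEs from -0.14 to 0.89. It was 0.72 without control 1 and 0.11 without control 2, and leaving out the library labelled Htr2b_cKO 3 gave 0.22. The opposite-strand gene Mapk7, which overlaps Mfap4, had at most 1330 counts in a library against at least 7740 for Mfap4, by the same counter. The strand setting of the counter is not given in the sources used here, and whether reads of Mapk7 were added to Mfap4 was not tested. Mfap5 (chromosome 6, 122505845 to 122529290, plus strand) had 371 and 363 CPM in control and 292, 459.8, 525 and 302 CPM in Htr2b_cKO. As for Eln, the controls nearly coincided, Htr2b_cKO libraries 1 and 4 lay below them, and libraries 2 and 3 lay above. For Mfap5 the log2 fold change was 0.10 (edgeR, SE 0.26, adjusted p = 0.920). Leaving out the library labelled Htr2b_cKO 3 gave -0.051, and leaving out Htr2b_cKO 4 gave 0.21. The log2 ratio of Mfap5 to its partner Mfap2 (MAGP-1) was 1.83 and 1.64 in control and 1.68, 1.96, 2.40 and 1.67 in Htr2b_cKO, a mean difference of 0.19 (exact permutation test, two-sided, p = 0.6).

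**Figure D3:**
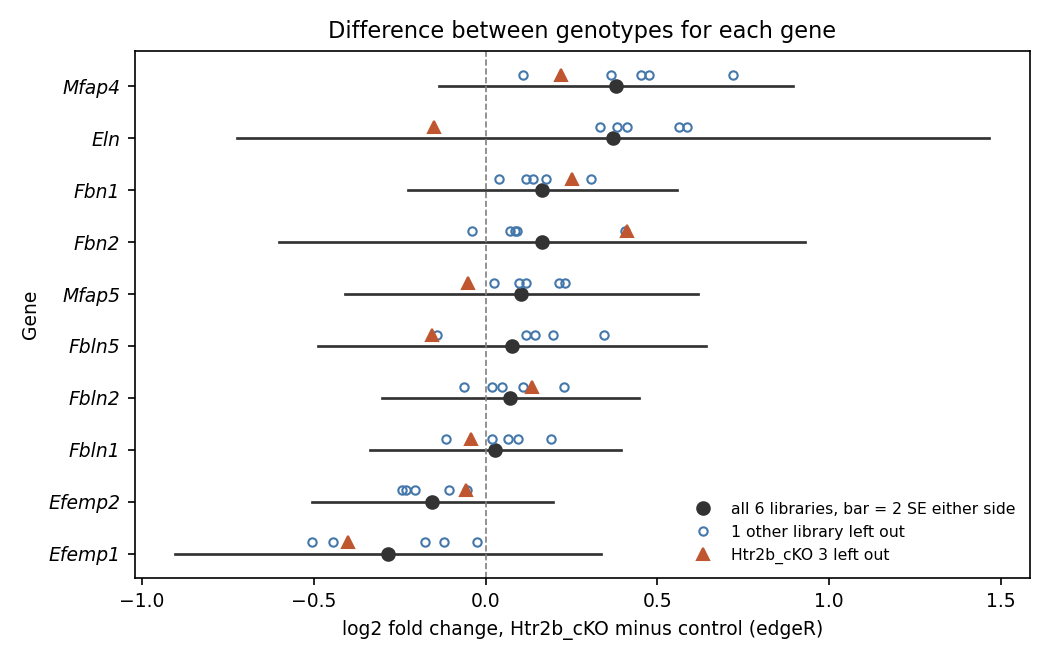
Log2 fold change of each gene, Htr2b_cKO minus control, from edgeR (black points, bars of 2 SEs either side), with the estimates when 1 library is left out above each bar (blue circles, or an orange triangle where the library labelled Htr2b_cKO 3 is left out). All 10 bars cross 0, and for Eln the triangle lies at -0.15 while the other 5 estimates lie above 0.

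Levels between genes were compared per length, as TPM, which divides counts by the summed exon length of the gene before scaling to the library. Over the 6 libraries Fbln2 was highest at 995 ± 118 TPM (SD, n = 6), followed by Mfap4 at 725 ± 184, Fbn1 at 702 ± 106, Fbln1 at 669 ± 76.2 and Eln at 471 ± 255 TPM. These neighbours overlapped in their ranges and were not told apart. Mfap5 followed at 351 ± 78.7 TPM and overlapped Eln, whereas Efemp2, at 217 ± 31.4 TPM, lay wholly below Mfap5. Efemp1 at 89.6 ± 24.8 TPM lay wholly below Efemp2, and its range overlapped that of Fbln5 at 57.5 ± 14.5 TPM. Within each library, with summed exon lengths, Efemp1 was above Fbln5, most narrowly in Htr2b_cKO 1 (57.7 against 53.7 TPM). Fbn2 at 29.9 ± 9.82 TPM lay wholly below Fbln5. The place of Eln depends on the length used. Its exons sum to 8098 bases while its longest single transcript has 3853, and with the latter it reached 775 ± 422 TPM and the second place. Fbn1, whose 12128 bases hardly shrink, dropped to the fifth place on that scale.

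As a share of the TMM-scaled library total, the 10 genes together took 0.739% and 0.744% in control. In Htr2b_cKO libraries 1 to 4 they took 0.728%, 0.859%, 0.914% and 0.788%. Shares of the unscaled counts differ from these. Their summed level was 7413 ± 35.9 CPM (SD, n = 2) in control and 8220.4 ± 815 CPM (SD, n = 4) in Htr2b_cKO, with 1 Htr2b_cKO library below both controls. The make-up of that sum differed more than its size. Eln supplied 13.7% and 12.8% of it in control and 10.1%, 14.4%, 26.8% and 8.34% in Htr2b_cKO libraries 1 to 4. Fbn1 supplied 29.6% and 35.1% in control and 36.7%, 33.4%, 24.7% and 37.5% in Htr2b_cKO. Eln thus outweighed Fbn1 by CPM in the library labelled Htr2b_cKO 3 and in no other library.

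**Figure D4:**
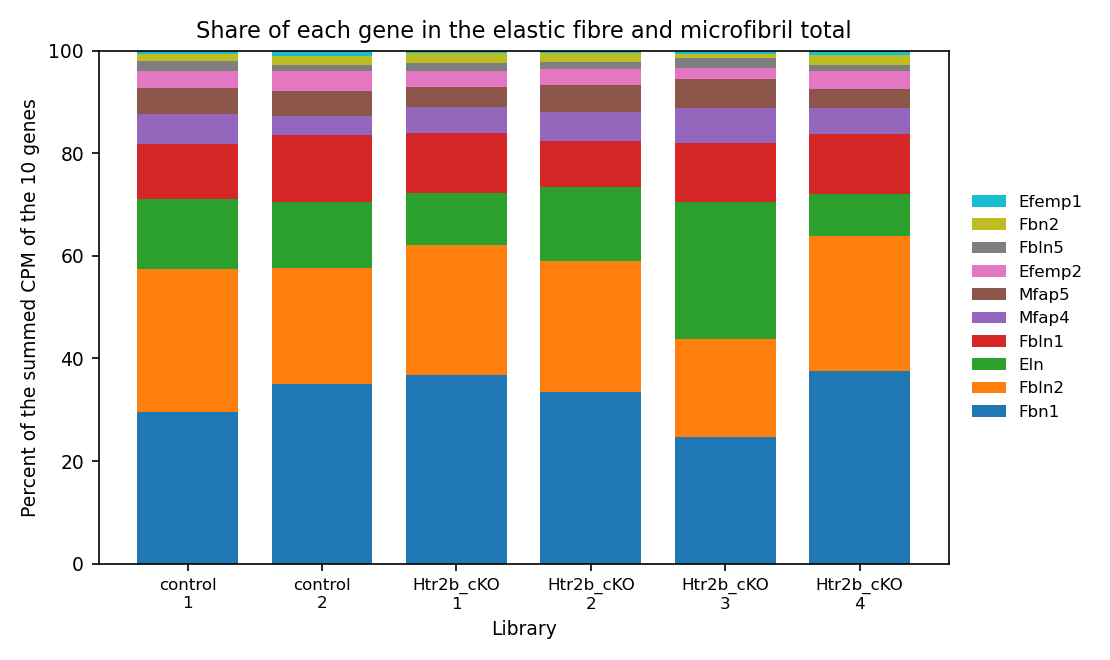
Share of each gene in the summed CPM of the 10 genes, as stacked bars per library from 0 to 100 percent. Eln (green) takes 26.8% in the library labelled Htr2b_cKO 3 and 8.34% to 14.4% in the other 5 libraries.

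The 10 genes did not vary as 1 block. The library labelled Htr2b_cKO 3 was the highest of the 6 for 5 of them, Eln, Fbln1, Fbln5, Mfap4 and Mfap5, where 20.1% of all genes tested were highest in that library. It was the lowest for Fbn2 and Efemp2, where 18.4% of all genes were lowest there. Against the mean of the other 5 libraries it had 2.66 times as much Eln, 1.66 times as much Fbln5, 1.58 times as much Mfap4, 1.47 times as much Mfap5 and 0.44 times as much Fbn2. As a description over 6 libraries, in each of which all genes share the same depth and scaling, Eln ran most closely with Mfap5 (r = 0.95, and 0.96 without the library labelled Htr2b_cKO 3). The likeness of Eln to Fbln5 (r = 0.88) and to Mfap4 (r = 0.75) rested more on that library and was 0.57 and 0.33 without it. Fbn1 ran with Fbn2 (r = 0.83, and 0.94 without that library), and Fbn1 ran opposite to Fbln5 (r = -0.81, and -0.79 without it). Among 10087 other genes with a mean log2 CPM of at least 3, those most like Eln over the 6 libraries were Gm6277, Arpc5l and Selenop (r of 0.998, 0.990 and 0.987). Those most like Fbn1 were Ipmk, Adamts1 and Nr4a3 (0.996, 0.995 and 0.995), and those most like Mfap5 were Snx9, Asah1 and Cpe (0.986, 0.986 and 0.984). With 6 points and so many genes these values only describe the pattern.

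Markers of other cells also differed between these libraries. The 9 macrophage markers summed to 2568 and 770 CPM in control and to 817, 2165, 4206 and 328 CPM in Htr2b_cKO libraries 1 to 4, and 9 of 9 were highest in the library labelled Htr2b_cKO 3. The most abundant were Lyz2, at 2517 CPM in that library, and C1qb, at 455 CPM. Eln and the macrophage sum were thus both highest in library 3 and lowest in library 4, although control 1 was next for macrophage markers but behind Htr2b_cKO 2 for Eln. Of 10 adventitial fibroblast markers 7 were highest in the library labelled Htr2b_cKO 3, among them Pi16 at 770.1 CPM against 271 to 528 CPM elsewhere. The sum of the 10 was 4997.5 CPM there against 3292 to 4139 CPM. The list was not uniform: Cd248 was lowest in that library, at 383 CPM against 445 to 648 CPM elsewhere. Ly6c1 and Gfpt2 were highest in control 2. The 8 fibroblast markers, dominated by collagen genes, summed to 75637 CPM in that library against 90253 to 129653 CPM in the other 5. Of these 8 markers 3 were nevertheless highest in that library, Dcn at 4884 CPM, Lum at 1549.9 CPM and Tcf21 at 108 CPM. Pdgfra at 668 CPM and Pdgfrb at 160 CPM were, like the collagen genes of the list, lowest in that library. The part of these differences in the levels of Eln, Fbln5, Mfap4 and Mfap5 was not tested. In sorted bulk RNA a change in the number of cells of a type and a change in RNA per cell cannot be told apart.

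**Figure D5:**
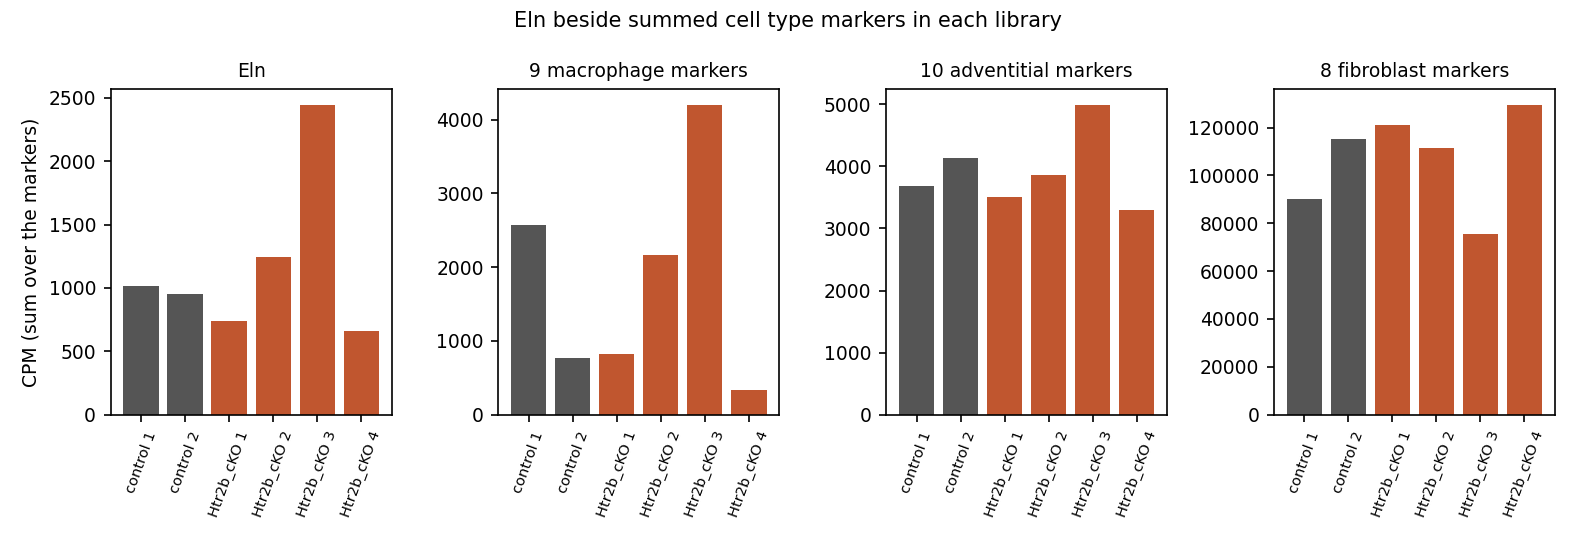
Level of Eln and summed levels of 9 macrophage, 10 adventitial fibroblast and 8 fibroblast markers in each library (CPM, bars from 0, separate scales; grey for control, orange for Htr2b_cKO). The library labelled Htr2b_cKO 3 is highest in the first 3 panels and lowest in the last.

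Genes that work with these 10 were read from 7 lists holding 70 genes, of which 63 had enough counts to be tested. With edgeR 0 of 63 passed, and 6 had an unadjusted p under 0.05 (9.59% of all genes did), 5 of them higher (6.6% of all genes) and 1 lower (2.99%) in Htr2b_cKO; limma voom called 0 and DESeq2 called 1, Adamts6. Groups did not overlap for 8 of the 63, beside 19.6% of all genes. For the counts above 0 given per list below, 7918 of the 15840 genes tested were above 0.

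Other microfibril and elastin-binding proteins, a list that holds Mfap2, the emilins and the latent TGF-β binding proteins, had 8 members above 0 and 8 below, and their median was -0.01 on the log2 scale. Its smallest p belonged to Mmrn2, an endothelial emilin-family protein, at 19.9 and 2.68 CPM in control and 4.19 to 6.61 CPM in Htr2b_cKO, so that its log2 fold change of -1.16 became 0.94 without control 1. The 9 endothelial markers summed to 445 CPM in control 1 and to 130 to 204 CPM in the other 5 libraries. Next was Npnt, the integrin ligand nephronectin, at 1.63 to 2.19 CPM in control and 1.69 to 6.24 CPM in Htr2b_cKO (log2 fold change 0.86, edgeR, adjusted p = 0.650; 0.40 without Htr2b_cKO 4).

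Of the lysyl oxidases, which crosslink elastin and collagen, 4 of 5 were above 0 and the median was 0.19. Lox had 696 and 1091 CPM in control and 1042, 1399, 762 and 1801 CPM in Htr2b_cKO (log2 fold change 0.49, edgeR, adjusted p = 0.692). This was 0.26 without Htr2b_cKO 4, 0.20 without control 1 and 0.85 without control 2. Loxl4 had 11.6 and 11.8 CPM in control and 15.8, 30.8, 14.4 and 17.2 CPM in Htr2b_cKO, which did not overlap (log2 fold change 0.74, edgeR, adjusted p = 0.520; 0.44 without Htr2b_cKO 2).

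The fibrillin-binding ADAMTS and ADAMTS-like genes were above 0 in 9 of 9 cases, with a median of 0.32, and 0 passed. Single libraries stood out in some of them. Adamtsl1 had 60.7 and 103 CPM in control and 89.7, 54.1, 40.1 and 152 CPM in Htr2b_cKO libraries 1 to 4. Adamtsl2 had 135 and 71.1 CPM in control and 120, 90.2, 199 and 93.6 CPM in Htr2b_cKO. Adamts6, a protease of the microfibril-associated subfamily, had 7.47 and 9.40 CPM in control and 20.0, 16.7, 12.6 and 22.6 CPM in Htr2b_cKO libraries 1 to 4. The 4 Htr2b_cKO libraries lay above both controls, with the library labelled Htr2b_cKO 3 the closest to them. Adamts6 had a log2 fold change of 1.10 (edgeR, SE 0.26, adjusted p = 0.326), and DESeq2 called it (adjusted p = 0.0358). Adamts10, a relative that binds fibrillin-1, had 113 and 117 CPM in control and 126, 119.7, 198 and 129.8 CPM in Htr2b_cKO, with the library labelled Htr2b_cKO 3 apart from the rest (log2 fold change 0.32, edgeR, adjusted p = 0.667; 0.14 without that library).

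Of 9 tested integrin subunits 7 were above 0, with a median of 0.24. Itgb8, whose αvβ8 integrin releases active TGF-β from its latent complex, had 14.6 and 15.8 CPM in control and 33.2, 25.6, 21.0 and 39.5 CPM in Htr2b_cKO. Its groups did not overlap, and the log2 fold change was 0.97 (edgeR, SE 0.26, adjusted p = 0.356). Itgb1, the shared β1 subunit, had 688 and 784 CPM in control and 825 to 927 CPM in Htr2b_cKO (log2 fold change 0.24, edgeR, adjusted p = 0.651; 0.15 without control 1). Of 9 tested growth factors and inhibitors 6 were above 0, with a median of 0.29. Gdf10 had 11.4 and 11.5 CPM in control and 12.2, 21.4, 21.2 and 29.9 CPM in Htr2b_cKO (log2 fold change 0.89, edgeR, adjusted p = 0.455; 0.56 without both Htr2b_cKO 3 and Htr2b_cKO 4). Grem1, a secreted BMP antagonist, was near the detection limit, at 0.078 and 0 CPM in control and 0.998, 0.422, 0.302 and 2.41 CPM in Htr2b_cKO (edgeR, adjusted p = 0.425).

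For elastin secretion and the elastin receptor complex 2 of 6 genes lay above 0 and the median was -0.09. Glb1, which gives rise to the elastin-binding protein, had 122 and 129 CPM in control and 119, 103, 93.8 and 118 CPM in Htr2b_cKO, which did not overlap but lay close (log2 fold change -0.21, edgeR, adjusted p = 0.676; -0.13 without the library labelled Htr2b_cKO 3), and Neu1, the neuraminidase of that complex, had 30.6 to 37.4 CPM in control and 26.1 to 34.1 CPM in Htr2b_cKO. Of 9 tested elastin-degrading enzymes 3 were above 0, with a median of -0.04. Mmp9, a gelatinase that cuts elastin, had 53.2 and 29.4 CPM in control and 20.1, 19.9, 30.9 and 24.7 CPM in Htr2b_cKO (log2 fold change -0.79, edgeR, adjusted p = 0.427; -0.30 without control 1), and Ctsl, a lysosomal protease, had 926 to 1200.02 CPM in control and 809.6 to 1066 CPM in Htr2b_cKO. Elane, Mmp7 and Ctsg, which encode neutrophil elastase, matrilysin and cathepsin G, did not have enough counts to be tested.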

How the data were processed

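RNA was measured in 6 libraries, 2 control and 4 Htr2b_cKO, grouped by the genotype label; replicate numbers follow accession order, and nothing but the series design's mention of animals says that libraries are separate mice, so p-values measure the spread between these libraries. The authors deposited estimated counts, unnormalized and whole, for each Ensembl gene. A further deposited table holds a normalized signal: the estimated count over a factor specific to gene and library. DRAGEN, DESeq2 and mm10 are named without roles or versions, per the submitters' processing notes. Symbols, positions, exon lengths and GC content came from GENCODE M21 of the same build, which held 42256 of 42256 identifiers; promoters came from RefSeq (GRCm38.p6).

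The main test was edgeR 4.0.16 (R 4.3.3) glmQLFTest, two-sided, on genotype alone, with TMM scaling, filterByExpr and robust dispersions with the current, non-legacy estimate. P-values were adjusted by Benjamini-Hochberg over 15840 genes, and an adjusted p under 0.05 was a call. SEs were derived as |log2 fold change| over √F. The script was also run on simulated data with known fold changes. Alternatives were DESeq2 1.42.0, its size factors, limma 3.58.1 voom, no filter on low counts, the authors' factors, a GC and length offset, the legacy dispersion (chosen after seeing the data) and leaving out libraries. Likeness and SD over libraries used log2(CPM + 0.5).

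The genes, 7 partner lists and 12 marker lists were chosen with earlier results of these data known. Genes named beyond the 10 were the 2 with the smallest p in each partner list, with any called. Others were the 3 most like Eln, Fbn1 and Mfap5 by Pearson r, and the 2 most abundant of each marker list. Elane, Mmp7, Ctsg, Adamtsl1, Adamtsl2, Pi16, Cd248, Ly6c1, Gfpt2, Pdgfra, Pdgfrb, Dcn, Lum and Tcf21 were named after their values were seen. Thsd4, also named Adamtsl6, was counted once. No list was tested as a set.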

Additional observations from a re-analysis of the deposited data

Results flagged for a closer look

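Sets of 4 Htr2b_cKO values were screened for a library whose distance to its nearest neighbour is most of the whole range. Of 29 sets screened, 3 were marked, which chance does in about 1 in 20 sets, and the marked library was the one labelled Htr2b_cKO 3 each time. For Fbn2 the gap was 0.928 of the range, with 58.1 CPM against 143 to 149 CPM in the other 3. For the log2 ratio of Fbn2 to Fbn1 it was 0.83, with -5.28 against -4.37 to -4.19; this set shares Fbn2 with the first. For Adamts10 it was 0.871, with 198 CPM against 119.7 to 129.8 CPM. Eln was not marked, because Htr2b_cKO 2 at 1240.1 CPM lay between the highest library and the rest.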

How the results depend on the processing

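None of the 10 genes was called under any of the 14 alternatives, and 4 of them kept their direction throughout (Fbn1 and Mfap4 above 0, Efemp1 and Efemp2 below). With 1 library left out at a time, log2 fold changes ran from 0.040 to 0.31 for Fbn1, from 0.11 to 0.72 for Mfap4, from -0.51 to -0.024 for Efemp1, from -0.24 to -0.055 for Efemp2, from -0.15 to 0.59 for Eln, from -0.039 to 0.41 for Fbn2, from -0.12 to 0.19 for Fbln1, from -0.063 to 0.23 for Fbln2, from -0.16 to 0.34 for Fbln5, from -0.051 to 0.23 for Mfap5, from -1.94 to 0.94 for Mmrn2 and from -0.34 to 0.046 for Ctsl. Eln and Mfap5 turned negative only without the library labelled Htr2b_cKO 3, Fbln5 without it or control 2, Fbln1 without it or control 1, Fbn2 without control 1 and Fbln2 without control 2. Without both Htr2b_cKO 3 and Htr2b_cKO 4 Fbln1 was at -0.12 and Fbln5 at -0.083, and with the GC and length offset Fbln5 was at -0.032; the cause was not tested. The median of the 10 ranged from -0.05 to 0.13, the group difference of their summed CPM from 500.5 to 1122, and the group difference of the log2 ratio from -0.19 to 0.17 for Fbn2 to Fbn1, from -0.25 to 0.35 for Fbln2 to Fbln1, from -0.39 to -0.01 for Efemp1 to Efemp2 and from 0.04 to 0.29 for Mfap5 to Mfap2.

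Over all genes 3 were called, 105 with DESeq2, 1 with limma voom, 5 with no filter on low counts, 5 without both Htr2b_cKO 3 and Htr2b_cKO 4, and 1 (without control 1) to 8 (without Htr2b_cKO 4) with 1 library left out. Of the partner genes 0 were called, and 1 with DESeq2 (Adamts6; its adjusted p ranged from 0.0358 to 0.999 over the alternatives). Leaving out a control leaves 1, whose spread is then taken from the other group. No paired analysis was made, because replicate numbers follow accession order and the labels used here do not pair control with Htr2b_cKO libraries. Each of the 10 genes had at least 959 counts in each library, so counting error is a small part of these spreads.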

Other observations

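Marker lists of other cell types give the background of the sort. Summed levels, as the range in control and then in Htr2b_cKO, were 2146 to 3380.1 and 1657 to 2953 CPM for 7 myofibroblast markers, led by Postn and Acta2, and 141 to 240.3 and 142 to 186 CPM for 8 pericyte and smooth muscle markers, led by Des and Notch3. They were 9.94 to 36.5 and 11.2 to 30.04 CPM for 8 cardiomyocyte markers, led by Myh6 and Tnnt2, and 297 to 365 and 226 to 302 CPM for 6 epicardial and mesothelial markers, led by Wt1 and Upk3b. The 6 neutrophil markers, led by S100a9 and S100a8, summed to 36.4 to 104 and 27.7 to 81.0 CPM, the 6 T cell markers, led by Cd4 and Trac, to 2.35 to 6.09 and 1.39 to 5.86 CPM, and the 6 Schwann markers, led by Mbp and Kcna1, to 32.5 to 36.0 and 23.7 to 28.6 CPM. The 7 B and plasma cell markers, led by Ighm and Igkc, summed to 1503 and 1550 CPM in control and to 232, 211, 397 and 1270 CPM in Htr2b_cKO libraries 1 to 4. With edgeR 0 of the markers in the 12 lists passed the test. Endothelial markers were led by Fabp4 and Tek, fibroblast markers by Col3a1 and Col1a1, and adventitial markers by Dpt and Cd34.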
